A study of Sus scrofa with 40 samples.

Results

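The mitochondrial ribosomal protein genes were read from a study of liver and backfat in pigs. Members were the probe sets whose single platform gene symbol began with MRPL or MRPS and a number, and each probe set was kept apart (letters after a symbol, as in MRPL33 a and MRPL33 b, order the probe sets of 1 gene by name). This gave 77 probe sets for 58 genes, of 23999 probe sets without controls. Of the genes, 44 had 1 probe set and 14 had several, which together held 33 probe sets. A further 6 probe sets that carried several symbols (5 of MRPL55 and 1 of MRPL22) were not used.

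The pigs were 20 Yorkshire gilts, 6 months old and not yet pubertal, from 2 selection lines that differed in residual feed intake (RFI), which is intake above or below the amount foreseen from a pig's growth and upkeep. Low RFI pigs are the efficient ones. In each line, 5 pigs were held at 80% of their maintenance feed for 8 days (restricted) and 5 ate ad libitum. Liver and backfat (its middle layer, taken at the tenth rib) were measured on 1-colour Affymetrix porcine arrays, which gave 40 arrays in 8 groups of 5. The groups were low RFI restricted, low RFI ad libitum, high RFI restricted and high RFI ad libitum, in liver and in backfat. All pigs were described as genotyped for MC4R, a receptor in appetite control, and the labels of 39 arrays gave the genotype as heterozygous (the label of the other array did not state the genotype). The labels did not link a liver array to a backfat array of the same pig, so the tissues were fitted as independent.

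The mitochondrial ribosome translates the few messages of mitochondrial DNA, all of which in mammals code for membrane subunits of the respiratory chain and of ATP synthase. Its RNA comes from mitochondrial DNA, but all its proteins are encoded in the nucleus, made on cytosolic ribosomes and imported. Some have a counterpart in the bacterial ribosome and others exist in mitochondria alone. Adipocytes and hepatocytes both rely on mitochondria for fuel oxidation, adipocytes also for the synthesis of fatty acids and of the glycerol part of fat.

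By the known composition of the mammalian ribosome, 52 probe sets belonged to the large subunit and 24 to the small subunit. MRPS30 sits in the large subunit in spite of its name. MRPS36, with 1 probe set, carries a ribosomal name but is now assigned to the 2-oxoglutarate dehydrogenase complex, and it was counted apart from both. A bacterial counterpart exists for 47 of the probe sets and 29 are of proteins found in mitochondria alone.

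A probe set was tested in a tissue if 5 or more of the 20 arrays had it above their 40th percentile. In backfat 70 of 77 members passed, covering all 58 genes, and in liver 73. Of those tested, 65 in backfat and 67 in liver were above that percentile on all 20 arrays, and none was below it on every array of either diet. The 7 members not tested in backfat were further probe sets of MRPL3, MRPL15, MRPL35, MRPL38, MRPL46, MRPL52 and MRPS12, and 4 of them (those of MRPL15, MRPL35, MRPL46 and MRPL52) were not tested in liver either. All values below are linear intensities as deposited. Differences are on the log2 scale from limma, with Benjamini-Hochberg adjusted p-values over all probe sets tested and a threshold of 0.05.

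The tissue labels matched the marker genes. The summed intensity of adipocyte markers was 58313 to 83224 on backfat arrays and 2277 to 4084 on liver arrays. In liver the hepatocyte marker sum was at least 354910. In backfat it reached 113100 on 1 array (low RFI restricted, number 5), where the median was 8262 in the 10 restricted samples, and ad libitum samples ranged over 3490 to 5671. Skeletal muscle marker sums in backfat spanned 779 to 120570 in restricted and 852 to 114680 in ad libitum samples. No marker was listed at 0. The log2 ratio of the 3′ to the 5′ GAPDH control probe set, a measure of RNA integrity and labelling, was 1.88 ± 0.521 in restricted and 1.19 ± 0.365 in ad libitum backfat (SD, n = 10 each), against 1.14 ± 0.268 and 0.996 ± 0.219 in liver. Arrays numbered 1 and 2 in each group differed from those numbered 3 to 5 in the corresponding actin ratio (2.27 against 1.56 in backfat and 2.25 against 1.32 in liver).

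Feed restriction lowered many of the mitochondrial ribosomal protein signals in backfat. Of 70 members tested, 35 fell and 2 rose, while 10.7% of all probe sets tested fell and 15.1% rose. The members' median log2 difference was -0.28, against 0.08 for all probe sets. At an unadjusted p under 0.05, 42 were lower and 3 higher, beside 2278 and 3550 of all 15498 probe sets. Of the 70 differences 61 were negative, beside 6143 of all probe sets. With 1 probe set per gene, 33 of 58 genes fell and 1 rose, with a median of -0.31. In a bulk sample, fewer cells of a type and less RNA per cell cannot be told apart.

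**Figure D1:**
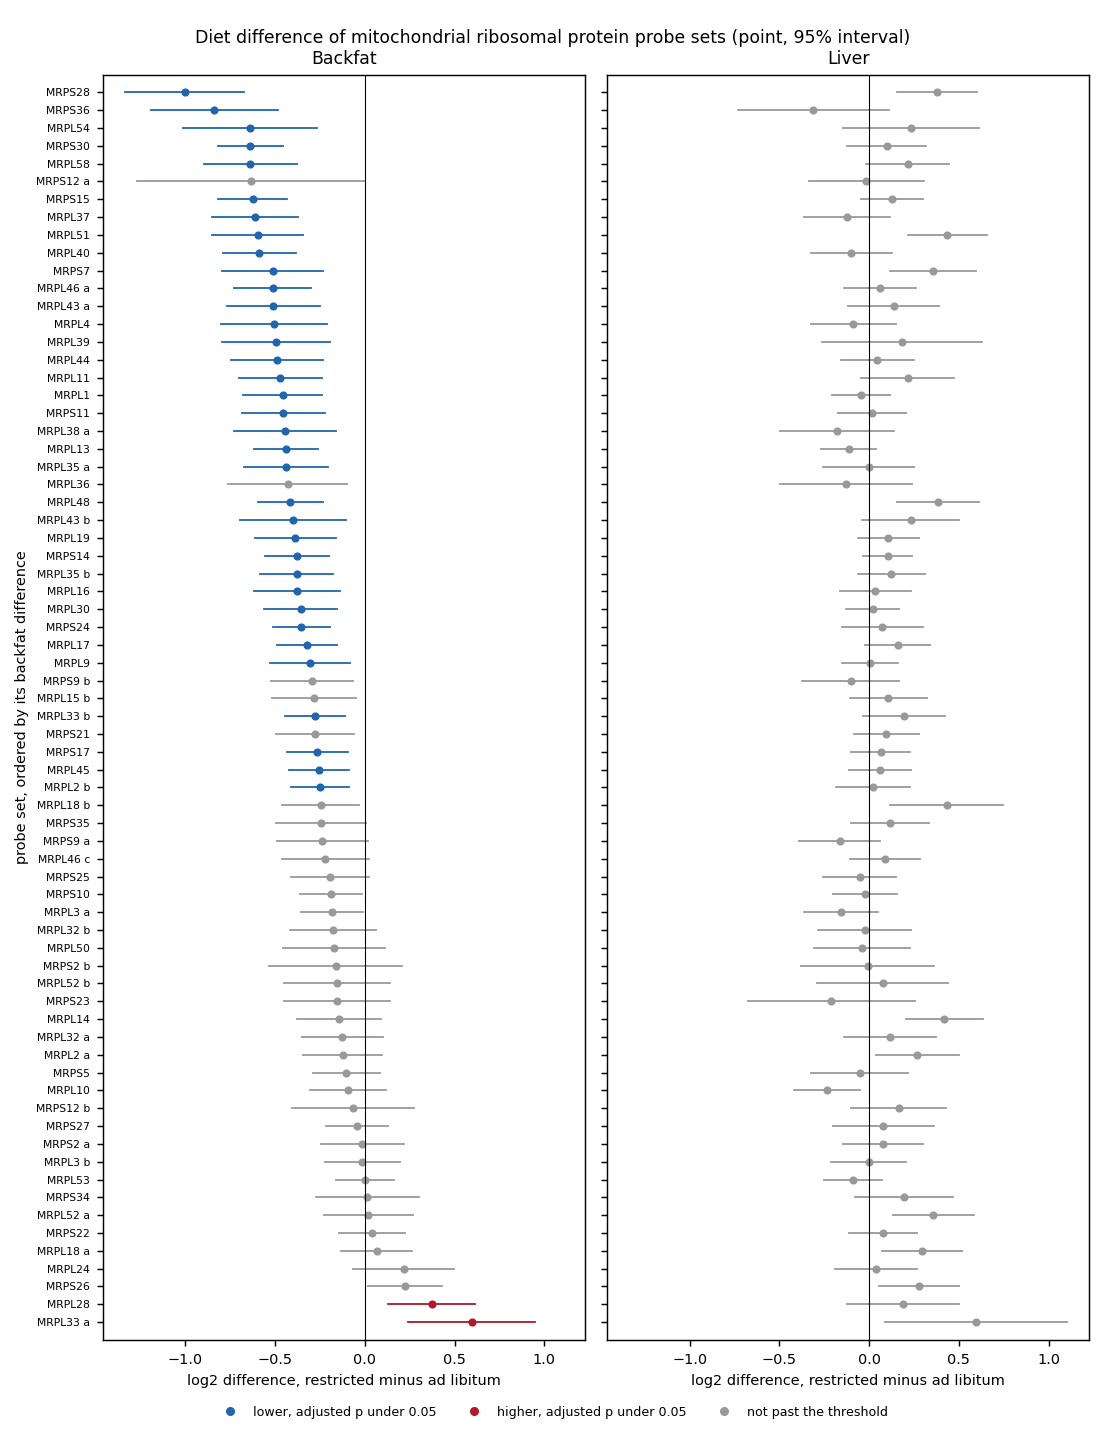
Log2 difference between restricted and ad libitum samples for the 70 members tested in backfat, in backfat (left) and liver (right), in the order of the backfat difference. Points are estimates and lines 95% intervals. In backfat 35 members were called lower and 2 higher, in liver 0 of the 73 tested there.

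The fall touched both subunits. In the large subunit 27 of 46 probe sets fell and 2 rose, with a median of -0.34. In the small subunit 7 of 23 fell and none rose, with a median of -0.24. MRPS36 was the other member that fell. Of proteins with a bacterial counterpart 20 of 43 probe sets fell and 2 rose (median -0.28), and of those found in mitochondria alone 14 of 26 fell (median -0.33). Differences between these classes were not tested.

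MRPS30, a large-subunit protein without a bacterial counterpart, had the smallest p of the members. Its intensity in low RFI backfat was 221, 247, 182, 188 and 216 in restricted pigs, against 304, 375, 333, 346 and 327 in pigs fed ad libitum. In high RFI backfat it was 263, 264, 223, 257 and 207 in restricted pigs, against 434, 357, 331, 328 and 382 in pigs fed ad libitum. All 10 restricted samples lay below all 10 ad libitum samples, the only member for which the groups did not overlap; among all probe sets 1.01% separated in that direction and 0.658% in the other. The level was 1.56-fold lower (log2 difference -0.64, SE 0.0873, adjusted p = 3.17e-05).

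Among other large-subunit proteins, MRPL54 had 113 to 302 (median 237) in restricted and 233 to 526 (median 335) in ad libitum backfat (log2 difference -0.64, SE 0.18, adjusted p = 0.0121). MRPL58, a peptidyl-tRNA hydrolase that is built into the large subunit and releases stalled chains, had 374 to 552 (median 451) in restricted and 459 to 953 (median 702) in ad libitum backfat (log2 difference -0.64, SE 0.126, adjusted p = 0.000959). The groups overlapped for both. MRPL40 had 549.5 to 682 (median 596) in restricted and 631 to 1198 (median 909) in ad libitum backfat (log2 difference -0.59, SE 0.0969, adjusted p = 0.000196). Only the ad libitum sample of low RFI pig number 1, at 631, reached into the restricted range of MRPL40.

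MRPL37 (-0.61 (adjusted p = 0.000642)), MRPL51 (-0.60 (adjusted p = 0.00133)), MRPL43 (-0.51 (adjusted p = 0.00487) for the lower of its 2 probe sets) and MRPL46 (-0.51 (adjusted p = 0.00106) for 1 of its 2 tested probe sets) completed the large-subunit members among the 12 largest falls. All of them are proteins of the mitochondrial ribosome alone. MRPL51 ranged over 648 to 953 (median 778) in restricted and 848 to 1603 (median 1281) in ad libitum backfat. Its ranges overlapped through 3 ad libitum samples (low RFI numbers 1 and 3 and high RFI number 3), the other 7 being above every restricted sample.

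The largest fall was in the small subunit. MRPS28, which is related to a bacterial ribosomal protein of the small subunit, had intensities of 330.4, 299, 252, 280.2 and 291 in restricted low RFI backfat, against 413, 623, 431, 715 and 587 in ad libitum low RFI backfat. In high RFI backfat it had 325, 265, 279, 252 and 251 in restricted pigs, against 783, 617, 274, 626 and 847 in ad libitum pigs. Ad libitum samples exceeded every restricted sample except for high RFI number 3, which lay inside the restricted range. The level was 2.01-fold lower (log2 difference -1.005, SE 0.16, adjusted p = 0.000146).

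MRPS15, a small-subunit protein that binds the ribosomal RNA in bacteria, had 1147 to 1516 (median 1327) in restricted and 1508 to 2377 (median 2186) in ad libitum backfat (log2 difference -0.62, SE 0.0924, adjusted p = 7.36e-05). Here too high RFI ad libitum number 3 was the only ad libitum sample in the restricted range. MRPS7, a protein of the head of the small subunit, had 163 to 319 (median 229.5) in restricted and 215 to 431 (median 341) in ad libitum backfat (log2 difference -0.51, SE 0.134, adjusted p = 0.00793). Its groups overlapped over a wider span.

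MRPS36 had the fall next in size to MRPS28, with 97.6 to 282 (median 211) in restricted and 263 to 479 (median 339) in ad libitum backfat (log2 difference -0.84, SE 0.171, adjusted p = 0.0013). Its highest restricted samples overlapped the lowest ad libitum sample.

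**Figure D2:**
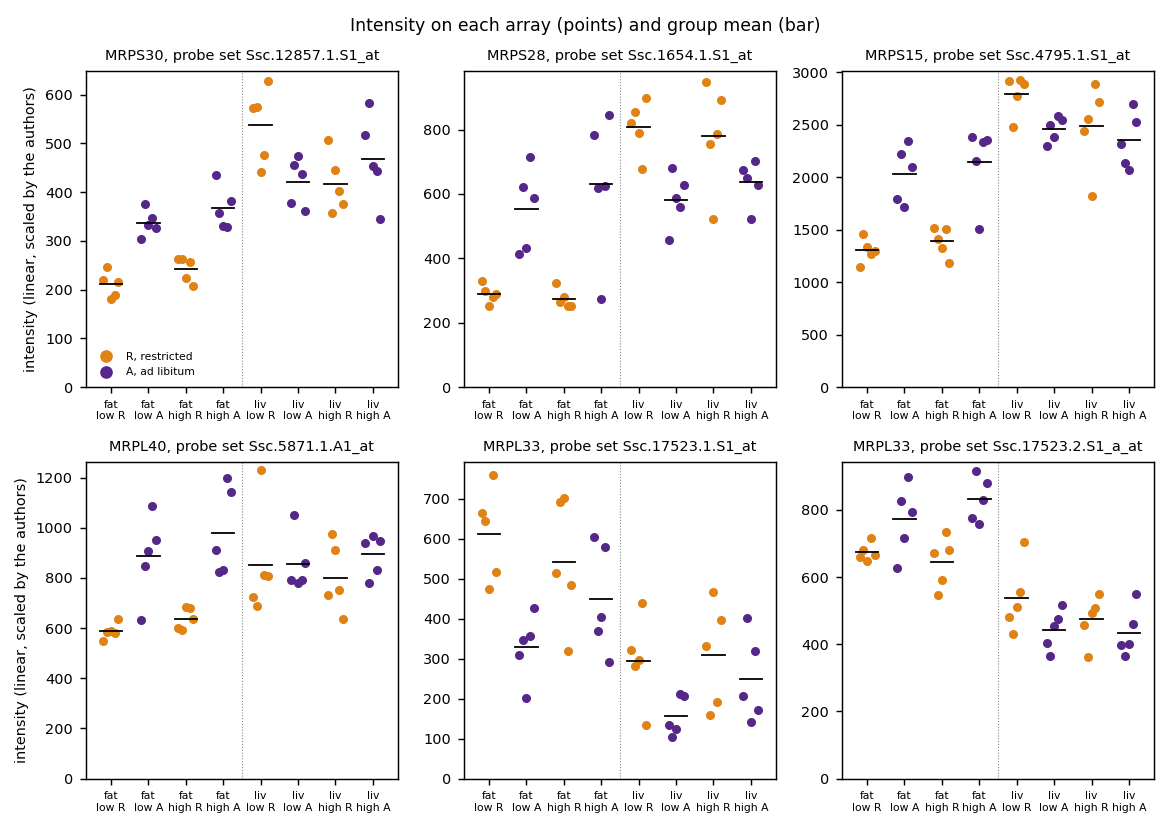
Linear intensity on each array for MRPS30, MRPS28, MRPS15, MRPL40 and both probe sets of MRPL33, in the 8 groups (fat is backfat, liv is liver, low and high are RFI lines, R is restricted and A ad libitum). Points are arrays and bars group means; for MRPS30 the restricted and ad libitum backfat samples do not overlap, and the MRPL33 probe sets move opposite ways in backfat.

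A part of the ribosome did not pass the test. Chosen after their values were seen, MRPL53 (0.00 (adjusted p = 0.998)), MRPS34 (0.01 (adjusted p = 0.956)) and MRPS22 (0.04 (adjusted p = 0.798)) had backfat differences close to 0. For MRPL53 the 95% interval of the log2 difference was -0.16 to 0.16, for MRPS34 -0.27 to 0.30 and for MRPS22 -0.15 to 0.22. MRPL28, a large-subunit protein with a bacterial counterpart, was 1 of the 2 members that rose, with 992 to 1574 (median 1232) in restricted and 691 to 1211 (median 987) in ad libitum backfat (log2 difference 0.37, SE 0.117, adjusted p = 0.0234). With each array centred on its median, MRPL28 kept its direction but did not pass the threshold. The same held with arrays numbered 1 and 2 alone, with those numbered 3 to 5 alone and with both control ratios as covariates.

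MRPL33, a small large-subunit protein with a bacterial counterpart, gave opposite calls by its 2 probe sets. MRPL33 a rose. Its intensity was 664, 644, 473, 759 and 517 in restricted and 309, 347, 201, 356 and 427 in ad libitum low RFI backfat. In high RFI backfat it was 514, 692, 701, 319 and 485 in restricted and 604, 369.5, 403, 579.7 and 292 in ad libitum samples. All 5 restricted samples of the low RFI line lay above all 5 ad libitum ones, and those of the high RFI line overlapped (log2 difference 0.59, SE 0.169, adjusted p = 0.0132). The share of all probe sets that separate within a line was not computed.

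MRPL33 b, whose name carries Affymetrix's mark for a probe set that matches several transcripts of 1 gene, fell. It had 659, 681, 649, 716 and 666 in restricted and 626, 826, 717, 898 and 795 in ad libitum low RFI backfat. In high RFI backfat it had 671, 545, 593, 735 and 679 in restricted and 775, 915, 759, 831 and 879.6 in ad libitum samples (log2 difference -0.28, SE 0.0795, adjusted p = 0.0134). High RFI groups did not overlap, and in the low RFI line 1 ad libitum sample was below all restricted ones. The share of all probe sets that separate in this way was again not computed. For neither MRPL33 probe set did the diet difference depend on line at the threshold. Both kept their direction but lost the call with arrays numbered 1 and 2 alone, with those numbered 3 to 5 alone and with both control ratios as covariates. The probe sequences were not used here, and which transcripts each probe set reads was not tested.

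The other genes with several probe sets were compared in the same way. Of 12 genes with at least 2 probe sets tested in backfat, MRPL35 (-0.44 and -0.38) and MRPL43 (-0.51 and -0.40) fell by both. MRPL43's second probe set, with an adjusted p of 0.0416, lost its call when any of 12 arrays was left out. MRPL2 (-0.25 (adjusted p = 0.0211) and -0.12 (adjusted p = 0.417)) and MRPL46 (-0.51 (adjusted p = 0.00106) and -0.22 (adjusted p = 0.173)) fell by 1 of 2. In 7 genes no probe set passed: MRPL3 (-0.18 and -0.01), MRPL18 (-0.25 and 0.07), MRPL32 (-0.18 and -0.13), MRPL52 (-0.16 and 0.02), MRPS2 (-0.16 and -0.01), MRPS9 (-0.30 and -0.24) and MRPS12 (-0.63 and -0.07). In 3 genes (MRPL33, MRPL18 and MRPL52) the signs differed.

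For MRPS12, a protein of the decoding centre, the probe set MRPS12 a had one of the larger differences in size but a wide spread, with 69.6 to 233 (median 116) in restricted and 35.5 to 293 (median 241) in ad libitum backfat (log2 difference -0.63, SE 0.305, adjusted p = 0.133). Its other tested probe set gave log2 difference -0.07, SE 0.163, adjusted p = 0.808.

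The backfat difference ran the same way in both lines and in both sets of arrays. The median was -0.32 in low RFI and -0.27 in high RFI pigs, and 59 and 61 of the 70 members were lower with restriction. All 35 called members were lower in both lines, and all 35 were lower among arrays numbered 1 and 2 and among those numbered 3 to 5. The 35 were called on these same arrays, so the counts are not separate support. Among arrays numbered 1 and 2 the median was -0.29, with 2 members called lower, beside 2.33% of all probe sets. Among those numbered 3 to 5 it was -0.30, with 23 called lower, beside 8.52% of all probe sets. The call of MRPS30 was lost with arrays numbered 1 and 2 alone (2 arrays per group), and those of MRPS28 and MRPS15 were kept.

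Members were averaged on each array after each was centred on its mean over the arrays of the tissue. The mean was -0.144 ± 0.0701 in restricted and 0.144 ± 0.142 in ad libitum backfat (SD, n = 10 each). Restricted samples lay between -0.268 and -0.0209, and ad libitum samples between -0.113 and 0.319. High RFI ad libitum number 3 (-0.113) and low RFI ad libitum number 1 (-0.0336) fell inside the restricted range, and the other 8 ad libitum samples above it. In the group of high RFI pigs fed ad libitum, number 3 had the highest GAPDH ratio, 1.81 against 0.919 to 1.24 for the other 4. In the group of low RFI pigs fed ad libitum, number 1 had a ratio of 1.42. The highest there, 1.59, was that of number 5, whose mean of the members was 0.154. Without high RFI ad libitum number 3, 42 members fell and 2 rose. That array was singled out for its low mean, so this count is not separate support.

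**Figure D3:**
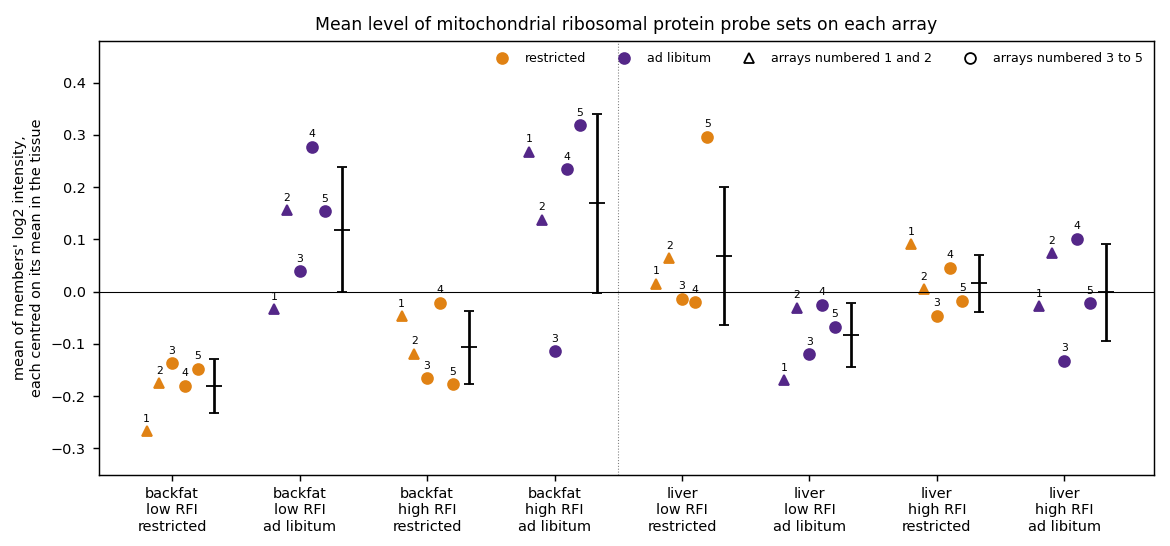
Mean of the members' log2 intensity on each array, each member centred on its mean over the tissue, in the 8 groups. Points are arrays with their numbers (triangles for 1 and 2, circles for 3 to 5), and bars are the group mean ± SD of 5 arrays; in backfat all 10 restricted samples are below 0 and 8 of 10 ad libitum samples above, and in liver low RFI restricted number 5 stands at 0.297.

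The GAPDH ratio moved with diet in backfat, and with both control ratios as covariates 13 of 70 members fell and none rose, beside 5.94% of all probe sets lower. Those 13 were MRPS30, MRPS15, MRPL40, MRPS28, MRPS36, MRPL13, MRPL58, MRPL37, MRPL54, MRPS14, MRPL43 a, MRPL39 and MRPL51, with MRPS30 at -0.56 and MRPS28 at -0.72. The median of the members was -0.25 in that fit. The part of RNA integrity in the difference was not tested beyond this. With the skeletal muscle markers as a covariate 38 were called, and without the array with the high hepatocyte sum also 38. The part of hepatocyte transcripts on the other restricted arrays was not tested.

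Other genes of the same pathway were read from lists, with 1 probe set per gene. Of 19 translation factors and related proteins, 5 fell and none rose in backfat, beside the 10.7% of all probe sets that fell. HSD17B10, a dehydrogenase that is also a subunit of mitochondrial RNase P, had 1498 to 2589 (median 2055) in restricted and 2139 to 3925 (median 3241) in ad libitum backfat, a difference of -0.58 (adjusted p = 0.00131). TSFM, the exchange factor of the elongation factor, had 656 to 1366 (median 869) in restricted and 1105 to 1696 (median 1250.2) in ad libitum backfat, a difference of -0.56 (adjusted p = 0.00133). LETM1, an inner-membrane protein that binds the mitochondrial ribosome, differed by -0.77 (adjusted p = 0.00572), and TUFM, the elongation factor that brings aminoacyl-tRNA, by -0.43 (adjusted p = 0.0364).

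The other steps of making and using the ribosome were read next, and counts of 1 in a list stand beside the 10.7% of all probe sets that fell and the 15.1% that rose. Of 6 mitochondrial aminoacyl-tRNA synthetases, FARS2 (-0.54 (adjusted p = 0.0128)) and IARS2 (-0.27 (adjusted p = 0.0272)) fell. Of 16 assembly factors 1 fell, MALSU1 (-0.32 (adjusted p = 0.0225)), which binds the large subunit before it is complete, a share below that of all probe sets. Of 4 other ribosomal proteins with different names, CHCHD1 (-0.33 (adjusted p = 0.0247)), a small-subunit protein, fell. Of 8 genes for the expression of mitochondrial DNA none fell and TFAM, which packages and transcribes it, rose, with 1249 to 1923 (median 1538) in restricted and 1190.0 to 1494 (median 1331) in ad libitum backfat (0.24 (adjusted p = 0.0339)). Of 3 tested regulators of mitochondrial biogenesis YY1, a zinc finger transcription factor, rose (0.32 (adjusted p = 0.0089)). For these lists of 8 and 3 genes a count of 1 is no result about the list. PPARGC1A, a coactivator of mitochondrial genes, did not pass the filter in backfat, and NRF1 and GABPA were not analysed here.

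Import genes, whose products bring the ribosomal proteins into the organelle, were also read. Of 25 import and folding genes 16 fell and none rose (median -0.36), beside the 10.7% of all probe sets that fell. DNAJC19, a cochaperone of the import motor, had 696 to 1232 (median 951) in restricted and 1304 to 2616 (median 1633) in ad libitum backfat (-0.84 (adjusted p = 9.95e-05)). TIMM17B, a subunit of the inner-membrane translocase, differed by -0.65 (adjusted p = 0.000123), and HSPE1, the partner of the mitochondrial chaperonin, by -0.57 (adjusted p = 0.000482). Of 59 genes for subunits of the respiratory chain and ATP synthase 45 fell and none rose (median -0.64), beside the same 10.7%. Of 61 cytosolic ribosomal protein genes none fell and 3 rose, a share below the 15.1% of all probe sets that rose. Their median was 0.09, against 0.08 for all probe sets. No test compared these lists with the members.

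In liver no member passed the threshold for diet. Of 73 members tested, limma called 0, while 0.542% of all probe sets fell and 0.376% rose. At an unadjusted p under 0.05, 12 members were higher and 1 lower, beside 1010 and 931 of all 15677 probe sets. With a 60th percentile filter 2 members were called, with array set as a term 3 and with both control ratios as covariates 4, all higher in restricted pigs. In those fits 0.682%, 0.708% and 1.17% of all probe sets were called higher. The median log2 difference was 0.08, against 0.02 for all probe sets, and 49 of 73 were positive. On the liver arrays the mean of the members was 0.0419 ± 0.0989 in restricted and -0.0419 ± 0.0855 in ad libitum samples (SD, n = 10 each), and the groups overlapped.

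The smallest p in liver belonged to MRPL51, with 1189, 1213, 903, 1204 and 1782 in restricted and 839, 973, 729, 862 and 894 in ad libitum low RFI liver. In high RFI liver it had 1259, 1134, 988, 1219 and 1171 in restricted and 998, 951, 735, 1051 and 828 in ad libitum samples. It averaged higher with restriction and the groups overlapped (log2 difference 0.43, SE 0.106, adjusted p = 0.0523). MRPL14, a large-subunit protein with a bacterial counterpart, had 1131 to 1577 (median 1339.9) in restricted and 800.4 to 1278 (median 982) in ad libitum liver (log2 difference 0.42, SE 0.104, adjusted p = 0.0584). MRPL48 (0.38 (adjusted p = 0.106)), MRPS28 (0.38 (adjusted p = 0.106)) and MRPL52 a (0.36 (adjusted p = 0.132)) were the other members with the 5 smallest p.

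In the low RFI restricted liver group, number 5 had the highest mean of the members (0.297, against -0.0208 to 0.0637 in the other 4). Without it no member was called and the median was 0.04. MRPL33 had liver differences of 0.60 (adjusted p = 0.293) for MRPL33 a and 0.20 (adjusted p = 0.497) for MRPL33 b, neither called. In the pathway lists no gene passed in liver among the translation factors, synthetases, assembly factors, regulators, import genes or respiratory subunits. TUFM differed by -0.26 (adjusted p = 0.511), TFAM by -0.04 (adjusted p = 0.894) and PPARGC1A by -0.49 (adjusted p = 0.246). Of 59 cytosolic ribosomal protein genes 5 rose and none fell in liver (median 0.21), beside the 0.376% of all probe sets that rose.

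The diet difference itself was lower in backfat than in liver for many members. In 28 of 70 members tested in both tissues the backfat difference was more negative and in none more positive, against 6.36% and 4.53% of all probe sets. The median of backfat minus liver was -0.37, against 0.05 for all probe sets. At an unadjusted p under 0.05 there were 41 members, all negative, beside 1640 negative and 1729 positive of all 14001 probe sets. Of the 28, 26 were among the 35 that fell in backfat. Both counts use the same backfat difference, so the overlap is not separate support. In liver 27 of those 35 differences were positive, beside 49 of all 73 members and 8373 of 15677 probe sets.

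MRPS28 had the largest contrast, with a diet difference of -1.005 in backfat and 0.38 in liver (log2 difference -1.38, SE 0.196, adjusted p = 1.24e-05 for backfat minus liver). Its liver intensities were 522 to 948 (median 805) in restricted and 458 to 704 (median 628) in ad libitum pigs. MRPL51 had -0.60 in backfat and 0.43 in liver (log2 difference -1.03, SE 0.162, adjusted p = 4.36e-05). MRPL54 (-0.87 (adjusted p = 0.0257)), MRPS7 (-0.87 (adjusted p = 0.000967)), MRPL58 (-0.85 (adjusted p = 0.00067)) and MRPL48 (-0.80 (adjusted p = 0.000155)) followed. MRPS15 (-0.75 (adjusted p = 5.76e-05)) and MRPS30 (-0.74 (adjusted p = 0.000261)), 2 of the clearest falls in backfat, were also past the threshold.

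MRPS36 did not pass this test (-0.53 (adjusted p = 0.237)), with a difference of -0.31 in liver. The rising probe set of MRPL33 had nearly equal differences in both tissues (95% interval of backfat minus liver -0.63 to 0.62), and the falling one differed between them (log2 difference -0.47, SE 0.132, adjusted p = 0.0152). Within array sets 4 members were called lower among arrays numbered 1 and 2 (median -0.34), beside 1.66% of all probe sets. Among those numbered 3 to 5, 12 were called lower (median -0.34), beside 3.44%. With both control ratios as covariates 17 were called lower, beside 4.21%.

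**Figure D4:**
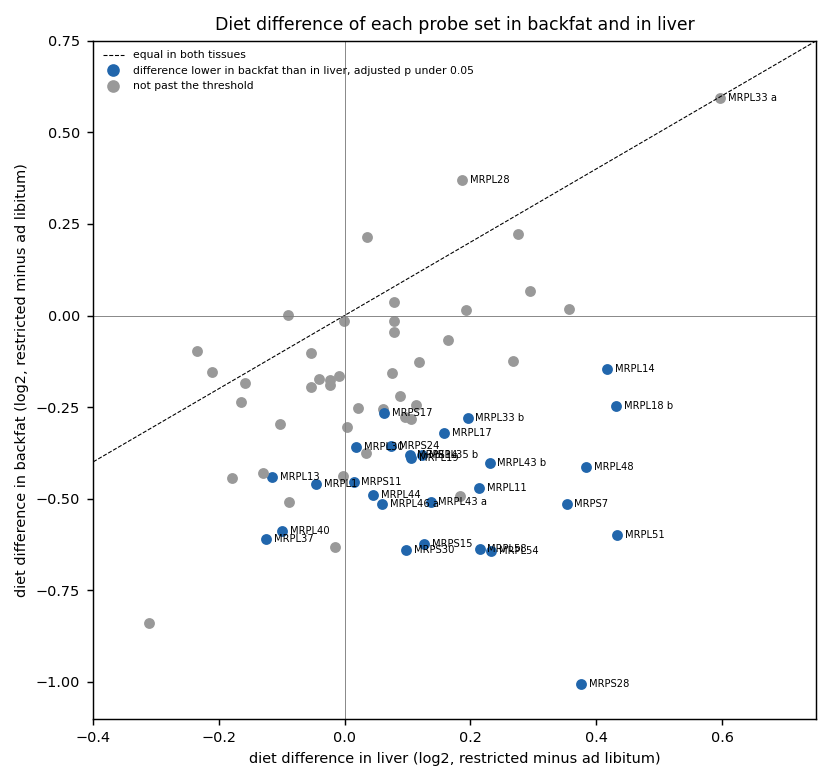
Diet difference of each member in liver (horizontal) and backfat (vertical), both log2, restricted minus ad libitum. Blue points are the 28 members whose difference was lower in backfat than in liver at an adjusted p under 0.05, and the dashed line marks equal differences; the rising MRPL33 probe set (a) lies on that line.

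The lines did not differ in any member at the threshold. In backfat limma called 0 of 70 for low against high RFI, beside 0.0194% of all probe sets. At an unadjusted p under 0.05 there were 3 members, all lower in low RFI pigs, beside 1205 of all 15498 probe sets. The skeletal muscle marker sums in backfat had group medians of 17906 in restricted and 64324 in ad libitum low RFI samples, against 1903 and 2977 in high RFI samples, and the 11 marker genes tested had a median log2 difference of 2.19, with 3 at an unadjusted p under 0.05 and none past the threshold. With the muscle markers as a covariate limma again called 0 members for line in backfat. MRPL19, a large-subunit protein with a bacterial counterpart, had the smallest p (log2 difference -0.35, SE 0.109, adjusted p = 0.352, 95% interval -0.58 to -0.12). In liver limma called 0 of 73, beside 0.0447% of all probe sets. At an unadjusted p under 0.05 there were 8 members, beside 1024 of all 15677 probe sets.

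MRPL36, a small large-subunit protein with a bacterial counterpart, had the smallest p for line in liver. It had 1084, 1115, 941, 1007 and 1231 in low RFI against 296, 604, 740.4, 773 and 498 in high RFI restricted liver, and 879, 1059.8, 978, 1075 and 724 in low RFI against 844, 787, 395, 1220.4 and 778 in high RFI ad libitum liver. Restricted low RFI samples were all above restricted high RFI samples, and the ad libitum groups overlapped (log2 difference 0.63, SE 0.177, adjusted p = 0.418, 95% interval 0.26 to 0.998). The share of all probe sets that separate within a diet was not computed.

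The diet difference did not depend on line in any member at the threshold. In backfat limma called 0 of 70, beside 0% of all probe sets. No member had an unadjusted p under 0.05, beside 244 of all 15498 probe sets. The smallest p was that of the rising MRPL33 probe set (log2 difference 0.65, SE 0.338, adjusted p = 1, 95% interval -0.05 to 1.36). In liver limma called 0 of 73, beside 0% of all probe sets. At an unadjusted p under 0.05 there were 2 members, beside 525 of all 15677 probe sets. These were MRPS30 (log2 difference 0.50, SE 0.213, adjusted p = 0.999) and MRPL3 b (log2 difference 0.46, SE 0.201, adjusted p = 0.999). In 56 of 73 members the liver difference was the more positive in low RFI pigs, with a median of 0.13 against -0.02 for all probe sets. The median was 0.04 without low RFI restricted number 5, 0.08 without low RFI ad libitum number 1 and 0.08 with both control ratios as covariates. With each array centred on its median it was 0.23, against 0.07 for all probe sets.

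More members were higher than lower in liver compared with backfat. Of 70 tested, 39 were higher and 14 lower in liver, while among all probe sets 27.4% were higher and 51.4% lower. The median was 0.32, against -0.25 for all probe sets. The split depended on scaling. It was 46 higher and 11 lower after quantile normalization and 50 higher and 8 lower with each array centred on its median, where the median of all probe sets was -0.09 and 0.01. Of the small subunit 15 of 23 probe sets were higher and 5 lower, and of the large subunit 24 of 46 higher and 9 lower.

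MRPL38, a large-subunit protein of mitochondria alone, and MRPL4, a large-subunit protein with a bacterial counterpart, had the largest differences. MRPL38 ranged over 894 to 2429.8 (median 1690.2) in liver and 416 to 924 (median 533) in backfat (log2 difference 1.47, SE 0.105, adjusted p = 1.15e-15). MRPL4 ranged over 776 to 1794 (median 1212) in liver and 260.2 to 788 (median 459) in backfat (log2 difference 1.47, SE 0.0924, adjusted p = 2.28e-17). In both the ranges overlapped in spite of the 2.77-fold difference.

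MRPS24 (1.20 (adjusted p = 1.93e-19)), MRPL1 (1.07 (adjusted p = 4.22e-18)) and MRPS17 (1.05 (adjusted p = 3.39e-20)), 3 proteins with bacterial counterparts, were higher on every liver array than on any backfat array. The share of all probe sets that separated between the tissues, in either direction, was not computed. The separation of these 3, and of MRPL30 below, is therefore no result about the members. MRPS24 ranged over 994 to 2013 (median 1362) in liver and 471 to 784 (median 607) in backfat. MRPS27 (1.06 (adjusted p = 3.87e-15)) and MRPS12 a (1.08 (adjusted p = 8.55e-07)) were also past the threshold, with overlap. MRPS28, the member with the largest diet fall in backfat, was 1.73-fold higher in liver.

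MRPL30, a large-subunit protein with a bacterial counterpart, was lower on every liver array than on any backfat array, with 1167 to 1488 (median 1332) in liver and 1804 to 3686 (median 2600.0) in backfat (95% interval of the log2 difference -1.12 to -0.88, adjusted p = 2.13e-18). Both probe sets of MRPL33 were lower in liver (-1.003 (adjusted p = 2.72e-07) and -0.64 (adjusted p = 3.45e-11)), as were both of MRPS9 (-0.88 (adjusted p = 1.64e-12) and -0.36 (adjusted p = 0.000276)). MRPL44, an RNase III-like protein of the large subunit (-0.73 (adjusted p = 8.01e-11)), MRPS10 (-0.67 (adjusted p = 1.74e-13)), MRPL15 (-0.63 (adjusted p = 1.42e-09)) and MRPL10, which anchors the stalk of the large subunit (-0.57 (adjusted p = 4.07e-10)), were lower too. The calls of MRPL30, MRPL33, MRPL4 and MRPS28 held in all 51 alternatives. The second MRPS9 probe set lost its call after quantile normalization and with each array centred on its median.

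**Figure D5:**
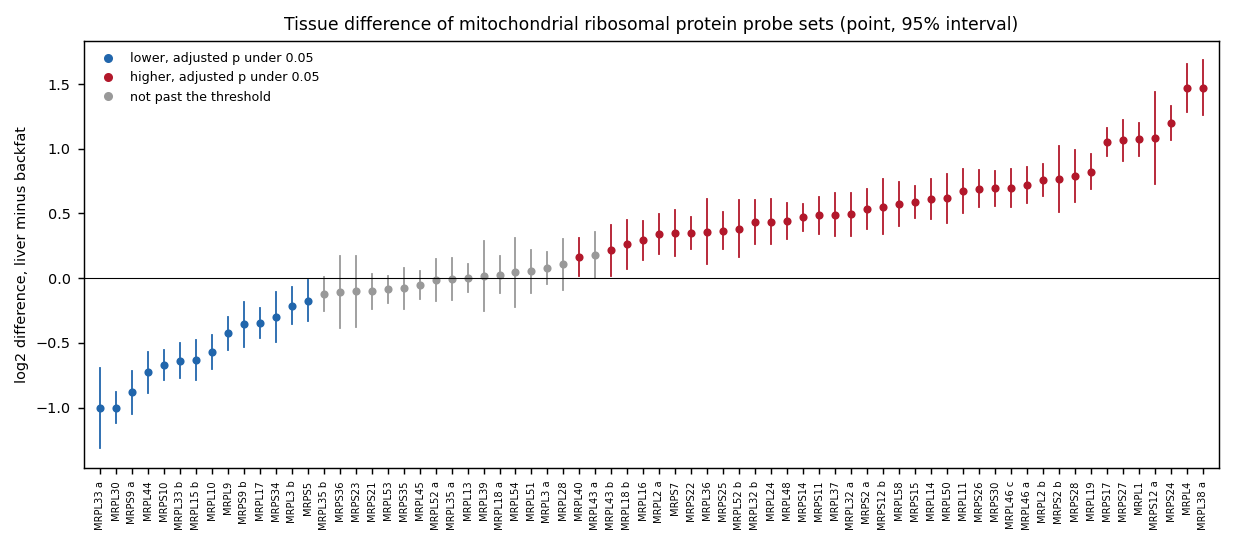
Log2 difference between liver and backfat for each of the 70 members tested in both tissues, averaged over line and diet. Points are estimates and lines 95% intervals, coloured by the call; under the authors' scaling 39 members were higher and 14 lower in liver (50 and 8 with each array centred on its median), and MRPL30 and an MRPL33 probe set lie lowest.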

How the data were processed

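Pigs' liver and backfat RNA was hybridised to 40 Affymetrix porcine arrays. The authors deposited linear intensity per probe set, and the submitters' processing notes name affy and MAS5 without version or role. The trimmed mean of each array without controls lay between 491.3 and 495.6, so no scaling was added. The number of arrays, not a depth, limits precision. Of 24123 probe sets, 124 controls were left out, and platform annotation gave 1 symbol to 10069, several to 198 and none to 13732. Entrez identifiers of 76 members matched RefSeq. Probe-level data and sequences were not used here.

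Intensities were log2-transformed with no offset. Group-means models were fitted with limma 3.58.1 in R 4.3.3 (lmFit, eBayes with an intensity trend), per tissue for diet, line and their interaction and over all 40 arrays for tissue. The filter was the 40th percentile of the own array on at least 5 arrays of a tissue, Benjamini-Hochberg adjustment covered all probe sets tested (15498 in backfat, 15677 in liver, 14001 in both), and the threshold was 0.05. Diet differences are restricted minus ad libitum, line differences low minus high RFI. On simulated data the planted changes that were called had the right sign, and the sign of those not called was not checked.

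Members, lists and tests were chosen with earlier results of these data known. Named were the 12 largest rises and falls among called members, the 5 smallest p where fewer than 5 passed, all probe sets of genes with several, up to 3 called genes per list, and PPARGC1A, NRF1, GABPA, TFAM and TUFM. Alternatives were quantile normalization, median centring, no filter, a 60th percentile filter, an offset, no trend, the replicate number as a block, array set as a term, each set alone, control ratios or muscle markers as covariates, and each array left out. Figures used Python 3.11.15 and matplotlib 3.10.9.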

Additional observations from a re-analysis of the deposited data

Results flagged for a closer look

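Within groups of 5 arrays, 168 groups of named values were screened for a single array far from the others, and 9 were found; chance gives about 1 in 20. The number given is the gap to the nearest array as a share of the group's range, and 0.71 is the critical value. High RFI ad libitum backfat number 3 was low for MRPS28 (274 against 617 to 847 on the other 4 arrays, 0.72), MRPS15 (1508 against 2150 to 2377, 0.779) and MRPL51 (848 against 1317 to 1551, 0.729). High RFI restricted backfat number 3 was low for MRPL37 (0.775). Low RFI restricted backfat number 1 was low for MRPL43 a (0.838), and low RFI ad libitum backfat number 1 was low for MRPL13 (0.711). Low RFI restricted liver number 5 was high for the mean of the members (0.734) and for MRPS12 c (178 against 96.0 to 114, 0.726). Low RFI ad libitum liver number 5 was low for the same MRPS12 probe set (45.8 against 77.0 to 87.1, 0.807).

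The diet difference in backfat minus that in liver passed the test in 28 members, and the following named ones are given on the log2 scale. It was -1.38 for MRPS28, -1.03 for MRPL51, -0.875 for MRPL54, -0.868 for MRPS7, -0.853 for MRPL58 and -0.799 for MRPL48. It was -0.751 for MRPS15, -0.736 for MRPS30, -0.685 for MRPL11 and -0.679 for MRPL18 b. It was -0.647 and -0.632 for the 2 probe sets of MRPL43, -0.574 for MRPL46 a, -0.502 for MRPL35 b and -0.475 for MRPL33 b.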

How the results depend on the processing

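Directions were followed through the alternatives for all named members in diet in backfat and, in the other results, for those named by size or p. These covered 20 of the 37 called members for diet in backfat, 24 of 53 for liver against backfat and 12 of 28 for diet by tissue. No called result among them changed direction in any alternative. Of the 42 uncalled results followed in this way, 6 had the other sign in at least 1 alternative, none of them called there. All 6 were for diet in backfat (MRPS12 b, MRPS2 a, MRPL2 a, MRPL3 b, MRPL18 a and MRPL52 a), the only result in which every named probe set was followed. MRPS12 b was -0.07 as reported and 0.34 with the control ratios as covariates. In the other results, further uncalled probe sets of genes with several were not followed. Of 37 members called for diet in backfat, 2 were called with arrays numbered 1 and 2 alone, 23 with those numbered 3 to 5 alone, and 13 with the GAPDH and actin control ratios added as covariates. For diet by tissue, with 28 calls, the same alternatives called 4, 12 and 17, of which 4, 12 and 15 were among the 28. The subsets hold fewer arrays; the cause of the change with covariates was not tested. For diet in liver, where none was called, 2 were called with the stricter filter, 3 with array set as a term and 4 with the ratios as covariates, all higher in restricted pigs. Leaving out each array in turn gave 35 to 44 calls for diet in backfat, 0 to 2 for diet in liver (2 without high RFI restricted number 3, 1 each without low RFI restricted number 3 or 4 or low RFI ad libitum number 4), 51 to 54 for liver against backfat, 23 to 31 for diet by tissue and 0 for line and for line by diet. Scaling shifted the median diet difference of all probe sets in backfat, at 0.08 as deposited, 0.02 after quantile normalization and -0.03 with median centring, and 37, 40 and 43 members were called. Of 20 named members called for diet in backfat, 19 kept the call with each array left out and 2 (MRPS28 and MRPS15) in all 32 alternatives.

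Samples shared replicate numbers in the labels. With group means removed, same-numbered arrays had a median correlation of 0.202 in backfat and 0.183 in liver (lowest 0.0198 and -0.00429). Arrays of another number in the same set (1 and 2, or 3 to 5) had medians of 0.0816 and 0.135. Between arrays numbered 1 or 2 and arrays numbered 3 to 5 the medians were -0.134 and -0.153. In backfat 12 and in liver 13 of 20 arrays correlated best with an array of their own number, a hint from the data only. The consensus correlation of liver and backfat arrays of 1 line, diet and number was 0.215. With the replicate number as a factor within each tissue, 43 members were called for diet in backfat and 3 for diet in liver. With arrays of 1 line, diet and number as a block, 55 were called for liver against backfat and 34 for diet by tissue.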
